A study of Mus musculus with 2 samples.

Results

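Hypoxic tumour cells are the tumour cells with the highest combined expression of 6 genes that are switched on by low oxygen. They were studied in 2 single-cell libraries from tumours that grew in C57BL/6 mice, 1 from MC38 cells overexpressing RSPO3 (RSPO3-OE) and 1 from control MC38 cells (Ctrl). MC38 is a mouse colon carcinoma line, so tumour and host are of the same species although the labels call the tissue a xenograft. RSPO3, an R-spondin released by cells, amplifies Wnt signals. The promoter and clone behind the overexpression, the number or pooling of mice, their age, the tumour site and the harvest time are details that the sources used here do not give.

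Kept barcodes had at least 200 genes and at most 20% mitochondrial UMIs (unique molecular identifiers, each standing for 1 captured transcript). Tumour cells were the kept barcodes with 0 UMIs of Ptprc, at least 1 UMI of Hmga2 and under 10 UMIs of C1qa, C1qb and C1qc together. Each received a score, the summed UMIs of Ero1l, Ankrd37, P4ha2, Bnip3, Slc2a1 and Higd1a over all its UMIs, and the highest 10% of both libraries pooled were taken as hypoxic. This gave 853 hypoxic cells of 8531 tumour cells and 14154 kept barcodes, 415 in the RSPO3-OE library and 438 in the Ctrl library, set beside 3798 and 3880 other tumour cells of the same 2 libraries. Oxygen was not measured, and the name rests on gene expression alone. The RSPO3-OE library held 155615189 UMIs in 7314 barcodes and the Ctrl library 143881763 UMIs in 7301 barcodes. Across them, 3 tumour cell barcodes and 0 hypoxic cell barcodes occurred in both. With 1 library a group there was no replicate check, and no test was made. All intervals are 95% intervals that cover counting error only, and cells are not replicates.

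Cells sense oxygen through prolyl hydroxylases of the EGLN family, which mark the HIF alpha subunits for capture by VHL and destruction while oxygen is present. When oxygen runs short, HIF-1 alpha persists, pairs with ARNT and binds DNA at a short core motif, ACGTG, near its target genes. Those targets move glucose use towards lactate, restrain mitochondria, call for new vessels and alter matrix collagen, and they mark regions of solid tumours that lie far from blood vessels.

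The core motif was looked for in the 300-base RefSeq promoter windows of build GRCm38.p6, each running from 250 bases before to 50 bases after a gene's start. Either strand counted, so ACGTG or CACGT was a match, and overlapping copies as in CACGTG counted separately. All 6 score genes held a match. The stretches below, 100 bases each and read 5′ to 3′ on the gene's strand, are shown for score genes and for genes outside the score that stood high in hypoxic cells, with the matches in capitals. Ero1l is listed in RefSeq as Ero1a.
Ero1l, chr14:45318573-45318672, minus strand: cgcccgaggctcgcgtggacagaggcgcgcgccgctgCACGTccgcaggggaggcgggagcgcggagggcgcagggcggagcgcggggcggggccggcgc
Ankrd37, chr8:45999851-45999950, minus strand: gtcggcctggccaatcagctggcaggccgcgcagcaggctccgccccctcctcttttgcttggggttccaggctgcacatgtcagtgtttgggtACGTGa
P4ha2, chr11:54100824-54100923, plus strand: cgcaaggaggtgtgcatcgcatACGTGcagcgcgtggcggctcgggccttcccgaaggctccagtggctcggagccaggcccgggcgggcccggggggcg
Bnip3, chr7:138909515-138909614, minus strand: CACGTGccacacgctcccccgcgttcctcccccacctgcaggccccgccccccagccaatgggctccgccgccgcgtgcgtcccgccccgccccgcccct
Slc2a1, chr4:119108645-119108744, plus strand: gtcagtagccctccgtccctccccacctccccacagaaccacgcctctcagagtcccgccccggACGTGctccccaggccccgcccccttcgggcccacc
Egln1, chr8:124949255-124949354, minus strand: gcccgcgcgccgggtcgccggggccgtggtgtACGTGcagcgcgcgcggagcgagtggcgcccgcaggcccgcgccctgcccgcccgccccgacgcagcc
Fam162a, chr16:36071562-36071661, minus strand: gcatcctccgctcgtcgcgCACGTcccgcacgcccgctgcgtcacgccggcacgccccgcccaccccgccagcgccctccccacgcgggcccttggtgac
Pgk1, chrX:106186950-106187049, plus strand: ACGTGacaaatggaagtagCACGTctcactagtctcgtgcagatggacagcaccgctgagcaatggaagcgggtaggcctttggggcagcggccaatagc
P4ha1, chr10:59323196-59323295, plus strand: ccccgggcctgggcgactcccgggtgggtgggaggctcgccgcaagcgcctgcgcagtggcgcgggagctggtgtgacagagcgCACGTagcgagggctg
Ldha, chr7:46845704-46845803, plus strand: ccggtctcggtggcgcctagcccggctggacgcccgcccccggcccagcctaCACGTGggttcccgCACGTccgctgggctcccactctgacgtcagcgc
The match of Higd1a lay after the start. No match was found in the windows of Gpi1 and Tpi1, which says only that these letters are not there. Ndrg1, Bnip3l and Plod2 had no window in the table.

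Over all genes, the motif stood in 19.6% of 32851 windows and in at least 1 window of 21.8% of 27025 genes. Among genes measured in both libraries it stood in 31.6% of the 5936 with a window. Of the 159 genes at least 1.5-fold higher in hypoxic than in other tumour cells of both libraries, 135 had a window and 47.4% of these held the motif. Of the 918 at least 1.5-fold lower in both, 742 had a window and 30.2% held it. Of 16 glycolysis and lactate export genes, 10 held it. A match is a description of sequence and not a binding site, and no test was made of these shares.

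The score itself spread over a wide range without a gap at the limit. Scaled to CPM (counts per 1000000 UMIs), it had a median of 340.8 over all tumour cells and of 2753 over hypoxic cells, with a maximum of 12396. The lowest member stood at 1752.17 and the highest non-member at 1751.44. Within 10% of the limit lay 100 cells above and 123 cells below, so the class is the top of a continuous range. A total of 235 tumour cells had no score UMI. Hypoxic cells carried 4 to 288 score UMIs with a median of 59, and non-members had a median of 8. Median scores were close in the 2 libraries, 2732 in RSPO3-OE and 2775 in Ctrl hypoxic cells, against 299.6 and 307.2 in other tumour cells.

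**Figure D1:**
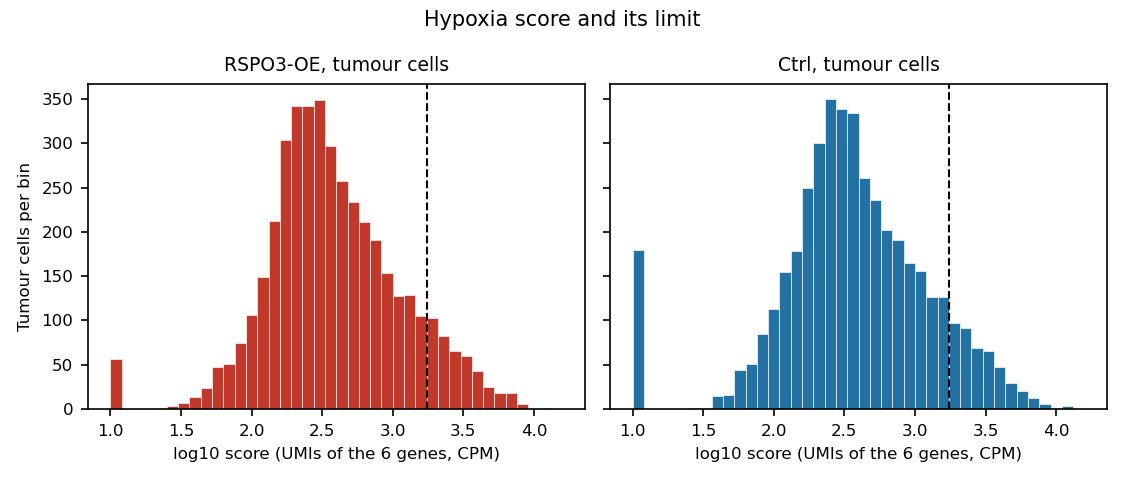
Number of tumour cells by hypoxia score (score UMIs in CPM, log10 scale), one panel a library. The dashed line marks the limit at 1752 CPM, and the first bar holds the 56 RSPO3-OE and 179 Ctrl cells with no score UMI. Cells run through the limit without a gap.

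Hypoxic cells made up 9.85% of RSPO3-OE tumour cells (exact Clopper-Pearson interval 8.97% to 10.8%) and 10.1% of Ctrl tumour cells (9.26% to 11.1%). The pooled rule fixes the share at 10% over both libraries, so that only the split between them is free. The 2 intervals overlapped.

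Members had fewer UMIs and genes than other tumour cells, and a lower mitochondrial share. Median UMIs were 20411 in hypoxic against 26145.5 in other tumour cells of the RSPO3-OE library, and 19228 against 21914.5 in the Ctrl library. Median genes were 3925 against 4812 and 3855.5 against 4486.5 in the same order of libraries. The median mitochondrial share was 2.13% against 2.91% in RSPO3-OE and 2.83% against 4.06% in Ctrl. Few hypoxic cells were shallow, with 12 of 415 and 38 of 438 under 10000 UMIs. Scrublet, which scores resemblance to simulated doublets, marked 1 hypoxic cell in each library. The part of these differences in the results below was not tested. Restricting the cells to at least 10000 UMIs moved the medians of 30 lists other than the HIF targets by at most 0.052 in RSPO3-OE and 0.077 in Ctrl. Of other tumour cells, 51 in RSPO3-OE and 471 in Ctrl were under that limit. It took out a small share of the cells, so it cannot decide the part of depth.

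The identity of the cells as tumour cells was read from markers. Hmga2, which the rule required, had 272 against 359 CPM in RSPO3-OE and, in Ctrl, 216 against 275 CPM, each pair giving hypoxic before other tumour cells. Hmga1, a chromatin protein the rule did not use, stood at 126 against 124 CPM in RSPO3-OE and, in Ctrl, 151 against 153 CPM. Peg3, another gene on the marker list, was at 0 in hypoxic cells of both libraries, and Prl2c2, Prl2c3, Igf2bp3 and Lin28b were under 10 CPM throughout. Of the white blood cell genes, Ptprc was at 0 by rule, Csf1r and Adgre1, which define macrophages, were under 1 CPM, and the 14 T and NK cell genes stood at 4.25 CPM in RSPO3-OE hypoxic cells and 2.63 CPM in Ctrl hypoxic cells. The 16 macrophage and monocyte genes summed to 1152 against 941 CPM in RSPO3-OE and, in Ctrl, 1020 against 650.4 CPM, nearly all of it Plac8, at 1050.5 against 828 CPM in RSPO3-OE and, in Ctrl, 923 against 547 CPM. The 10 endothelial genes summed to 17.5 against 28.2 CPM in RSPO3-OE and, in Ctrl, 6.57 against 11.2 CPM, and the 9 neutrophil genes to 14.7 against 10.8 and 12.2 against 16.9 CPM. The 10 fibroblast and pericyte genes, which include Dcn and Col3a1, summed to 3122 against 3636 CPM in RSPO3-OE and, in Ctrl, 2865 against 2363 CPM. In the Ctrl library 1 hypoxic cell held 754 of the 761 haemoglobin UMIs of the class. The part of these genes in the results was not tested.

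The score genes are a description, since they chose the cells. Ero1l, an oxidase that drives disulfide formation in the endoplasmic reticulum, had in the RSPO3-OE library 884 CPM in hypoxic cells against 73.3 CPM in other tumour cells, and in the Ctrl library 809 against 73.5 CPM. Slc2a1, the glucose transporter GLUT1, had in the RSPO3-OE library 426 CPM in hypoxic cells against 61.4 CPM in other tumour cells, and in the Ctrl library 428 against 58.03 CPM. Bnip3, a mitochondrial protein that marks the organelle for removal, had in the RSPO3-OE library 492 CPM in hypoxic cells against 57.8 CPM in other tumour cells, and in the Ctrl library 500.3 against 68.7 CPM. P4ha2, a catalytic subunit of collagen prolyl 4-hydroxylase, stood at 112 against 10.2 CPM in RSPO3-OE and, in Ctrl, 144 against 15.9 CPM. Ankrd37, an ankyrin repeat protein known as a HIF-1 target, stood at 259.7 against 40.2 CPM in RSPO3-OE and, in Ctrl, 303 against 43.1 CPM. Higd1a, a small protein of the respiratory chain, stood at 915 against 174 CPM in RSPO3-OE and, in Ctrl, 923 against 187 CPM. All 6 had higher levels in hypoxic cells of both libraries, as the rule demands, with log2 ratios between 2.30 and 3.59.

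How far the score genes move together was read by choosing cells with 3 of them and measuring the other 3. When the highest 10% were chosen by Ero1l, Ankrd37 and P4ha2, 406 RSPO3-OE and 447 Ctrl cells were taken, of which 329 and 361 were also members. In the chosen cells Bnip3 stood at 431 CPM in RSPO3-OE against 63.5 CPM in the rest, and at 459.9 against 70.8 CPM in Ctrl, log2 ratios of 2.76 and 2.70. Slc2a1 gave 2.61 and 2.68, and Higd1a 2.05 and 1.996. When cells were chosen by Bnip3, Slc2a1 and Higd1a in turn, Ero1l gave 3.16 in RSPO3-OE and 3.18 in Ctrl, Ankrd37 2.57 and 2.53, and P4ha2 3.16 and 2.95. The genes left out were thus higher in cells chosen without them, although all come from the same cells and libraries. The score genes were chosen with earlier results of these data known, so these values describe the score and are no separate check of it. Each cell's UMIs were also divided at random into equal parts, so that cells were chosen by UMIs other than those measured. Ero1l then stood at 3.53 in RSPO3-OE and 3.42 in Ctrl. The same genes, Ero1l among them, still chose the cells there, so this division removes only counting error shared by choice and measurement.

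All further values are summed UMIs per class and library in CPM, with the log2 ratio of hypoxic over other tumour cells and its exact binomial counting interval. Genes with at least 10 CPM over both classes were counted as measured, and a gene was called where it differed at least 1.5-fold. In RSPO3-OE, 224 of 7580 measured genes were called higher (2.96%) and 1295 lower (17.1%). In Ctrl, 269 of 7821 were called higher (3.44%) and 1441 lower (18.4%). The median over all measured genes was -0.19 in each library, and median-of-ratios scaling raised it by 0.19, so a list median is to be read against -0.19 and is given relative to all genes beside most of them. With that scaling 472 genes were higher and 637 lower in RSPO3-OE, and 557 and 784 in Ctrl, so the higher share of the calls was 42.6% and 41.5% in place of 14.7% and 15.7%. The rule used this contrast, so these counts and those of the lists below describe the members. Between libraries the ratios of 7354 genes measured in both had a Pearson correlation of 0.875 and a Spearman correlation of 0.848, as a description across genes that share cells and depth. No gene was called in opposite directions.

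Known HIF targets outside the score stood high in both libraries. Of 40 such genes, 23 were measured in each library, 18 of them called higher in RSPO3-OE and 20 in Ctrl, and 0 called lower. Their median log2 ratio was 1.40 in RSPO3-OE and 1.43 in Ctrl, 1.59 and 1.62 relative to all genes. The other 17 were under 10 CPM over both classes in each library.

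Genes of the oxygen sensor itself were prominent among them. Egln3, a prolyl hydroxylase that marks HIF alpha for destruction, had in the RSPO3-OE library 268 CPM in hypoxic cells against 54.8 CPM in other tumour cells, and in the Ctrl library 207 against 49.1 CPM. Egln1, the main prolyl hydroxylase of this kind, had in the RSPO3-OE library 449 CPM in hypoxic cells against 134 CPM in other tumour cells, and in the Ctrl library 508 against 146 CPM. Log2 ratios were 2.29 in RSPO3-OE (2.22 to 2.36) and 2.07 in Ctrl (1.99 to 2.15) for Egln3 and 1.75 in RSPO3-OE (1.70 to 1.80) and 1.80 in Ctrl (1.75 to 1.85) for Egln1. The third family member, Egln2, stood at 26.3 against 27.7 CPM in RSPO3-OE and, in Ctrl, 28.3 against 25.2 CPM. Hif1a, the oxygen-regulated subunit, had 108 against 66.4 CPM in RSPO3-OE and, in Ctrl, 100.3 against 62.2 CPM, and its ratio was 0.71 in RSPO3-OE and 0.69 in Ctrl. Arnt, its partner, had 0.62 in RSPO3-OE and 0.46 in Ctrl, and Vhl, which captures hydroxylated HIF alpha, had 0.63 in RSPO3-OE and 0.92 in Ctrl. Elob, a subunit of the VHL ubiquitin ligase, was lower, at 398 against 577 CPM in RSPO3-OE and, in Ctrl, 588 against 863 CPM, and Epas1, which encodes HIF-2 alpha, was near 0.2 CPM in all 4 classes.

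Among signals to vessels, Vegfa, the main growth factor for blood vessels, had in the RSPO3-OE library 387 CPM in hypoxic cells against 136 CPM in other tumour cells, and in the Ctrl library 528 against 151 CPM. Its log2 ratio was 1.51 in RSPO3-OE (1.46 to 1.57) and 1.81 in Ctrl (1.76 to 1.85). Esm1, an endothelial proteoglycan gene, stood at 93.8 against 58.01 CPM in RSPO3-OE and, in Ctrl, 167 against 117 CPM. Angptl4, often induced by hypoxia in other cells, stood lower, at 24.2 against 29.9 CPM in RSPO3-OE and, in Ctrl, 25.1 against 31.3 CPM. Of 20 angiogenic genes 10 were measured in RSPO3-OE, with 2 called higher and 1 lower, and 8 in Ctrl, with 1 called higher and 0 lower, and the medians were 0.02 and 0.18, or 0.21 and 0.37 relative to all genes.

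Stress and metabolic targets formed another group. Ndrg1, a stress-response gene that HIF and other factors induce, had in the RSPO3-OE library 483 CPM in hypoxic cells against 128 CPM in other tumour cells, and in the Ctrl library 309.6 against 59.7 CPM. Fam162a, a mitochondrial protein linked to hypoxic cell death, had in the RSPO3-OE library 495 CPM in hypoxic cells against 119 CPM in other tumour cells, and in the Ctrl library 611 against 152 CPM. Both groups of hypoxic cells stood above both groups of other tumour cells. Bnip3l, a relative of Bnip3 that also marks mitochondria for removal, stood at 246 against 87.9 CPM in RSPO3-OE and, in Ctrl, 241 against 81.1 CPM. Hilpda, which protects lipid droplets from breakdown, stood at 93.8 against 26.1 CPM in RSPO3-OE and, in Ctrl, 109.7 against 31.98 CPM. Pdk1, the kinase that shuts pyruvate out of mitochondria, stood at 79.7 against 26.05 CPM in RSPO3-OE and, in Ctrl, 103 against 35.4 CPM. Mxi1, a MYC antagonist, had ratios of 1.44 in RSPO3-OE and 1.43 in Ctrl, and Ddit4, an inhibitor of mTORC1, of 1.37 in RSPO3-OE and 0.83 in Ctrl. Kdm3a, a histone demethylase, had 1.16 in RSPO3-OE and 0.82 in Ctrl, and Jmjd6, another enzyme of the oxygen-dependent family, had 0.95 in RSPO3-OE and 1.13 in Ctrl.

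Some classical markers of hypoxia were too low to measure. Car9, the carbonic anhydrase often stained in human tumours, stood at 1.96 against 0.187 CPM in RSPO3-OE and, in Ctrl, 1.75 against 0.226 CPM. Adm, a vasodilating peptide, stood at 1.74 against 0.215 CPM in RSPO3-OE and, in Ctrl, 1.64 against 0.185 CPM. Ak4, a mitochondrial adenylate kinase, stood at 11.4 against 1.49 CPM in RSPO3-OE and, in Ctrl, 11.4 against 1.63 CPM. Ndufa4l2, a brake on the respiratory chain, stood at 7.85 against 0.562 CPM in RSPO3-OE and, in Ctrl, 0.986 against 0.175 CPM. All 4 were higher in hypoxic cells but under the level at which genes were counted. Cited2, which competes with HIF for its coactivator, stood at 132 against 132 CPM in RSPO3-OE and, in Ctrl, 96.9 against 106 CPM, and its ratio was -0.004 in RSPO3-OE and -0.13 in Ctrl.

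**Figure D2:**
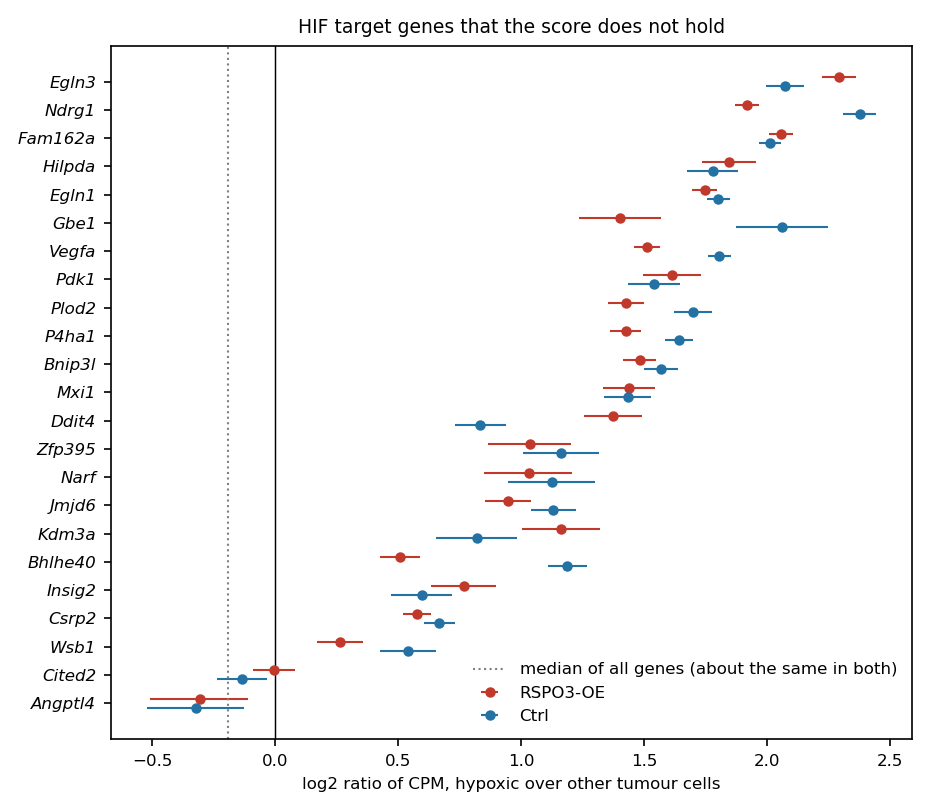
Log2 ratio of CPM, hypoxic over other tumour cells, for the 23 measured HIF targets outside the score, with points for the RSPO3-OE and Ctrl libraries bars for the 95% counting interval and a dotted line at the median of all genes. Egln3 and Fam162a lie near 2 in both libraries, while Angptl4 lies below 0.

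Glycolysis was higher along nearly its whole length. Of 20 genes of glycolysis and lactate export, 14 of 17 measured in RSPO3-OE and 14 of 16 in Ctrl were called higher and 0 lower, with medians of 1.32 and 1.38, or 1.51 and 1.57 relative to all genes. Together the 20 genes took 18428 CPM in hypoxic against 6961 CPM in other tumour cells of RSPO3-OE, and 21071 against 9038 CPM in Ctrl. Gpi1, which turns glucose 6-phosphate into fructose 6-phosphate, had in the RSPO3-OE library 1065 CPM in hypoxic cells against 274 CPM in other tumour cells, and in the Ctrl library 1350.1 against 341 CPM. Aldoa, the aldolase that splits the sugar, had in the RSPO3-OE library 1744 CPM in hypoxic cells against 489 CPM in other tumour cells, and in the Ctrl library 2014 against 629 CPM. Pgk1, which makes ATP in the later part of the pathway, had in the RSPO3-OE library 1751 CPM in hypoxic cells against 457 CPM in other tumour cells, and in the Ctrl library 1577 against 501 CPM. Log2 ratios were 1.96 in RSPO3-OE (1.93 to 1.99) and 1.98 in Ctrl (1.95 to 2.01) for Gpi1, 1.84 in RSPO3-OE (1.81 to 1.86) and 1.68 in Ctrl (1.65 to 1.70) for Aldoa and 1.94 in RSPO3-OE (1.91 to 1.96) and 1.66 in Ctrl (1.63 to 1.68) for Pgk1. The entry enzyme Hk2 had 1.48 in RSPO3-OE and 1.63 in Ctrl, and Pfkl, the liver form of phosphofructokinase, had 1.79 in RSPO3-OE and 1.55 in Ctrl. Tpi1, triosephosphate isomerase, stood at 1329 against 478 CPM in RSPO3-OE and, in Ctrl, 1524 against 578 CPM, and Gapdh at 6765 against 2707 CPM in RSPO3-OE and, in Ctrl, 7964 against 3919 CPM. Eno1 and Pkm, late enzymes of the pathway, had ratios of 0.87 in RSPO3-OE and 0.89 in Ctrl and of 1.12 in RSPO3-OE and 0.98 in Ctrl. Several of these genes have many processed copies in the mouse genome, which the counting could have split.

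At the lactate end, the isoforms went different ways. Ldha, the subunit that favours lactate, had in the RSPO3-OE library 1509 CPM in hypoxic cells against 551 CPM in other tumour cells, and in the Ctrl library 1692 against 662 CPM. Ldhb, the subunit that favours pyruvate, had 13.9 against 14.9 CPM in RSPO3-OE and, in Ctrl, 8.88 against 12.03 CPM. Slc16a3, the lactate exporter MCT4, had in the RSPO3-OE library 125 CPM in hypoxic cells against 33.8 CPM in other tumour cells, and in the Ctrl library 86.02 against 26.3 CPM. Slc16a1, the transporter MCT1, had 38.4 against 45.4 CPM in RSPO3-OE and, in Ctrl, 29.5 against 32.9 CPM. Bsg, the chaperone of both transporters, stood at 1109.7 against 479 CPM in RSPO3-OE and, in Ctrl, 1341 against 518 CPM. Ldha, Slc16a3 and Bsg were thus above the 1.5-fold limit in both libraries, and Ldhb and Slc16a1 were not.

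Of the glycogen list, 2 of 7 measured genes were called higher in each library, against 2.96% and 3.44% over all genes. In RSPO3-OE 0 were called lower and in Ctrl 1, against 17.1% and 18.4% over all genes. The list medians were 0.29 and 0.28, or 0.48 and 0.47 relative to all genes, with 6 and 5 of the 7 above 0. Pgm1, which links glycogen to glycolysis, had in the RSPO3-OE library 111 CPM in hypoxic cells against 31.9 CPM in other tumour cells, and in the Ctrl library 99.9 against 24.5 CPM. Gbe1, the branching enzyme, stood at 39.997 against 15.1 CPM in RSPO3-OE and, in Ctrl, 35.7 against 8.56 CPM. Gys1, the glycogen synthase outside liver, was under the counting level over both classes, at 25.8 against 6.83 CPM in RSPO3-OE and, in Ctrl, 29.3 against 7.18 CPM.

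Among transcripts of mitochondrial respiration, those of the mitochondrial genome were lower, while nuclear genes were called lower at a share below that of all genes. The 13 genes encoded in the mitochondrial genome summed to 21994 against 28949 CPM in RSPO3-OE and, in Ctrl, 29452 against 41136 CPM, with 5 and 6 called lower and medians of -0.44 and -0.54, or -0.25 and -0.35 relative to all genes. Mitochondrial UMIs were capped by the cell filter, and no demand was made on single genes. mt-Cytb, of complex III, had in the RSPO3-OE library 1199 CPM in hypoxic cells against 2944 CPM in other tumour cells, and in the Ctrl library 1927 against 4716 CPM. mt-Co1, of complex IV, was the exception among the 13 in both libraries, at 5100.0 against 4162 CPM in RSPO3-OE and, in Ctrl, 6986 against 5906 CPM. Of 54 nuclear genes of the respiratory chain, 8 in RSPO3-OE and 7 in Ctrl were called lower and 0 higher, against 17.1% and 18.4% lower over all genes. Their medians, -0.31 and -0.27, lay -0.12 and -0.08 from that of all genes. Ndufa4, a subunit of complex IV, had in the RSPO3-OE library 122 CPM in hypoxic cells against 223 CPM in other tumour cells, and in the Ctrl library 193 against 394 CPM. The 20 measured genes of pyruvate entry and the TCA cycle had 2 and 3 called lower and 0 higher, and medians of -0.33 and -0.24, or -0.13 and -0.05 relative to all genes. In the mitophagy list the medians were 0.27 and 0.28, or 0.46 and 0.47 relative to all genes, and beside Bnip3l the autophagy gene Gabarap had 0.64 in RSPO3-OE and 0.86 in Ctrl.

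Collagen-modifying enzymes split by gene. P4ha1, the other catalytic subunit of collagen prolyl 4-hydroxylase, had in the RSPO3-OE library 266 CPM in hypoxic cells against 99.2 CPM in other tumour cells, and in the Ctrl library 362 against 116 CPM. Plod2, a lysyl hydroxylase that prepares collagen for crosslinks, had in the RSPO3-OE library 199.9 CPM in hypoxic cells against 74.4 CPM in other tumour cells, and in the Ctrl library 192 against 59.03 CPM. P4hb, the partner subunit of P4ha1, had 0.53 in RSPO3-OE and 0.52 in Ctrl, under the 1.5-fold limit. Fkbp10 and Crtap, collagen-folding factors, were lower, at ratios of -0.82 in RSPO3-OE and -0.86 in Ctrl for Fkbp10 and -0.85 in RSPO3-OE and -0.97 in Ctrl for Crtap. Of 13 measured genes of this list, 2 were called higher and 3 lower in each library.

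Of the matrix genes, the 2 chains of basement membrane collagen stood high. Col4a1 had in the RSPO3-OE library 516 CPM in hypoxic cells against 288 CPM in other tumour cells, and in the Ctrl library 549.6 against 267 CPM, and Col4a2 had 425 against 245 CPM in RSPO3-OE and, in Ctrl, 353 against 149 CPM. Fibronectin, Fn1, had 0.50 in RSPO3-OE and 0.80 in Ctrl. The fibrillar Col3a1 had 838 against 1455 CPM in RSPO3-OE and, in Ctrl, 446 against 632 CPM, and Mgp, an inhibitor of calcification, had 134 against 495 CPM in RSPO3-OE and, in Ctrl, 25.5 against 67.3 CPM. Of the matrix list, 2 of 16 measured genes in RSPO3-OE were called higher and 4 lower, and 3 of 17 in Ctrl higher and 3 lower. Its medians were -0.20 and -0.42, or -0.006 and -0.23 relative to all genes.

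Metal and iron handling held some of the highest ratios outside the score. Mt1, a metallothionein that binds zinc and copper, had in the RSPO3-OE library 2351 CPM in hypoxic cells against 385 CPM in other tumour cells, and in the Ctrl library 1739.7 against 252 CPM. Mt2, its neighbour in the genome and of like function, had in the RSPO3-OE library 1221 CPM in hypoxic cells against 540.0 CPM in other tumour cells, and in the Ctrl library 744 against 205 CPM. Hmox1, the enzyme that breaks down haem, had in the RSPO3-OE library 98.8 CPM in hypoxic cells against 11.3 CPM in other tumour cells, and in the Ctrl library 135 against 17.8 CPM. Log2 ratios were 2.61 in RSPO3-OE (2.59 to 2.63) and 2.78 in Ctrl (2.76 to 2.81) for Mt1 and 3.13 in RSPO3-OE (3.001 to 3.25) and 2.92 in Ctrl (2.82 to 3.03) for Hmox1. The ferritin chains Fth1 and Ftl1, which store iron, had ratios of 0.93 in RSPO3-OE and 0.84 in Ctrl and of 0.83 in RSPO3-OE and 1.11 in Ctrl. Txnrd1, thioredoxin reductase and a target of the oxidative stress factor NRF2, was lower, at 58.3 against 95.03 CPM in RSPO3-OE and, in Ctrl, 42.7 against 73.1 CPM, while Nqo1 and Gclm, other NRF2 targets, had 0.04 in RSPO3-OE and 0.49 in Ctrl for Nqo1 and -0.10 in RSPO3-OE and 0.02 in Ctrl for Gclm. Of 16 measured genes 5 were called higher and 1 lower in each library.

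Stress pathways of protein synthesis did not move as lists. The integrated stress response list had medians of -0.09 and -0.10, or 0.10 and 0.09 relative to all genes, with 3 called higher and 4 lower in RSPO3-OE and 2 and 5 in Ctrl. Within it, Ddit3, the pro-death factor CHOP, had in the RSPO3-OE library 120.3 CPM in hypoxic cells against 45.2 CPM in other tumour cells, and in the Ctrl library 149 against 55.5 CPM. Nupr1, a stress-induced chromatin protein, stood at 623 against 330.1 CPM in RSPO3-OE and, in Ctrl, 493 against 251 CPM. The serine and one-carbon enzymes Psat1 and Shmt2 were lower, at -1.003 in RSPO3-OE and -0.96 in Ctrl for Psat1 and -1.02 in RSPO3-OE and -1.07 in Ctrl for Shmt2. The unfolded protein response list had medians of 0.07 and 0.03, or 0.26 and 0.22 relative to all genes, with Dnajb9, an endoplasmic reticulum chaperone, called higher in both libraries, at 0.79 in RSPO3-OE and 1.04 in Ctrl.

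**Figure D3:**
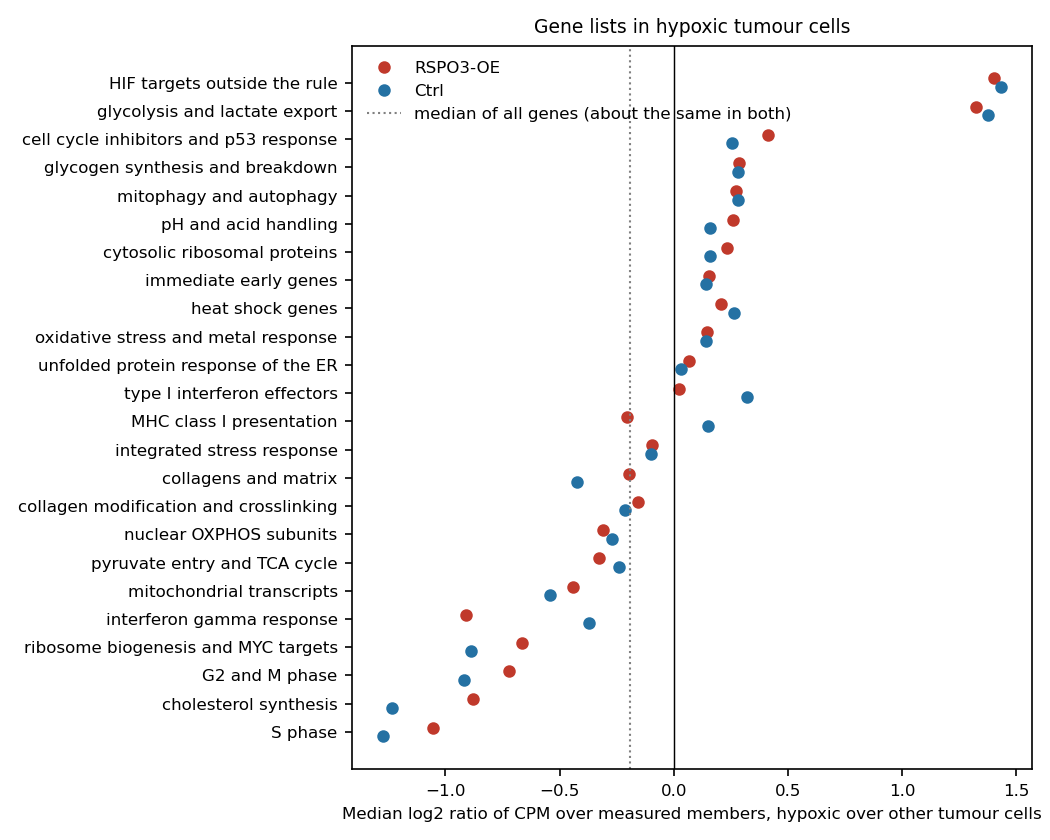
Median log2 ratio of CPM, hypoxic over other tumour cells, over the measured members of each gene list, with points for the RSPO3-OE and Ctrl libraries and a dotted line at the median of all genes. HIF targets and glycolysis lie near 1.4. S phase lies lowest in each library, followed by interferon gamma response in RSPO3-OE and cholesterol synthesis in Ctrl.

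Genes of cell division were lower in hypoxic cells. Of the S phase list, 26 of 30 measured in RSPO3-OE and 29 of 32 in Ctrl were called lower and 0 higher, with medians of -1.05 and -1.27, or -0.86 and -1.08 relative to all genes. Of the G2 and M phase list, 29 and 33 of 39 were called lower and 0 higher, with medians of -0.72 and -0.92, or -0.53 and -0.73 relative to all genes. Tk1, thymidine kinase, had in the RSPO3-OE library 20.2 CPM in hypoxic cells against 66.98 CPM in other tumour cells, and in the Ctrl library 24.7 against 80.7 CPM. Pclaf, a partner of the replication clamp, had in the RSPO3-OE library 53.1 CPM in hypoxic cells against 169 CPM in other tumour cells, and in the Ctrl library 51.5 against 170.3 CPM. Rrm2, a subunit of ribonucleotide reductase, had 30.4 against 79.9 CPM in RSPO3-OE and, in Ctrl, 32.3 against 94.1 CPM. Mcm7, of the replicative helicase, had 27.5 against 68.7 CPM in RSPO3-OE and, in Ctrl, 44.4 against 113 CPM, and Uhrf1, which maintains DNA methylation, had 22.1 against 55.95 CPM in RSPO3-OE and, in Ctrl, 26.4 against 81.1 CPM. Log2 ratios were -1.73 in RSPO3-OE (-1.95 to -1.52) and -1.71 in Ctrl (-1.91 to -1.52) for Tk1 and -1.67 in RSPO3-OE (-1.80 to -1.54) and -1.73 in Ctrl (-1.86 to -1.59) for Pclaf. The linker histone gene Hist1h1b had 41.4 against 139 CPM in RSPO3-OE and, in Ctrl, 116 against 309 CPM, though near-identical histone copies and the lack of a poly(A) tail on most histone transcripts make its count uncertain. Other genes chosen by the size of their difference were Dctpp1, Pimreg, Hmgb3, Ppa1, Lmnb1 and Gpatch4, with ratios between -1.34 and -1.61. Mki67, the proliferation antigen, had 109 against 199 CPM in RSPO3-OE and, in Ctrl, 88.4 against 236 CPM, and Top2a, a topoisomerase of dividing cells, had 282 against 603 CPM in RSPO3-OE and, in Ctrl, 268 against 555 CPM. In Ctrl the ratios of Rrm2 and Hist1h1b were -0.65 and -0.86 among cells below the median share of division gene UMIs, and that of Pclaf was -0.97 with the highest 20% of cells.

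Cell cycle inhibitors were partly higher. Of the 15 measured genes of cell cycle inhibition and the p53 response, 5 were called higher in each library, and 2 were called lower in RSPO3-OE and 1 in Ctrl. Cdkn1a, the inhibitor p21, had in the RSPO3-OE library 177 CPM in hypoxic cells against 106 CPM in other tumour cells, and in the Ctrl library 82.2 against 30.6 CPM. Ccng2, a cyclin linked to growth arrest, had in the RSPO3-OE library 36.7 CPM in hypoxic cells against 14.8 CPM in other tumour cells, and in the Ctrl library 61.9 against 19.5 CPM. Cdkn1b, the inhibitor p27, had 0.64 in RSPO3-OE and 0.63 in Ctrl, and Btg1, an antiproliferative gene, had 0.81 in RSPO3-OE and 0.77 in Ctrl.

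Ribosome production split between making ribosomes and their proteins. Of the ribosome biogenesis and MYC target list, 15 of 25 measured in RSPO3-OE and 21 of 26 in Ctrl were called lower, with medians of -0.66 and -0.89, or -0.47 and -0.70 relative to all genes. Dkc1, which modifies ribosomal RNA, had in the RSPO3-OE library 29.2 CPM in hypoxic cells against 77.4 CPM in other tumour cells, and in the Ctrl library 29.5 against 91.4 CPM. Myc itself had 73.1 against 76.7 CPM in RSPO3-OE and, in Ctrl, 38.02 against 51.8 CPM. The 44 cytosolic ribosomal protein genes had medians of 0.23 and 0.16, or 0.43 and 0.35 relative to all genes, with 43 and 42 above 0, and summed to 205331 against 174622 CPM in RSPO3-OE and, in Ctrl, 205169 against 180495 CPM. Since CPM are shares of a fixed total, a class with more of these abundant transcripts has lower CPM elsewhere.

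Cholesterol synthesis genes were lower in both libraries. Of its genes, 14 of 18 measured in RSPO3-OE and 18 of 20 in Ctrl were called lower and 0 higher, with medians of -0.88 and -1.23, or -0.69 and -1.04 relative to all genes. Cyp51, lanosterol demethylase, had in the RSPO3-OE library 23.2 CPM in hypoxic cells against 65.7 CPM in other tumour cells, and in the Ctrl library 21.7 against 75.2 CPM. Idi1, isopentenyl diphosphate isomerase, had 19.4 against 65.7 CPM in RSPO3-OE and, in Ctrl, 10.3 against 48.5 CPM, and Hmgcs1, which makes the first committed intermediate, had 59.1 against 113 CPM in RSPO3-OE and, in Ctrl, 27.3 against 86.4 CPM. Fatty acid synthesis went the same way for Fasn, the synthase, at 25.5 against 54.3 CPM in RSPO3-OE and, in Ctrl, 18.1 against 54.6 CPM, and for Elovl6, which lengthens fatty acids, at 3.05 against 13.3 CPM in RSPO3-OE and, in Ctrl, 4.05 against 21.7 CPM. Plin2, a coat protein of lipid droplets, was higher, at 157 against 91.6 CPM in RSPO3-OE and, in Ctrl, 194 against 109 CPM.

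Cells with fewer division genes were also compared on their own, as an alternative added after seeing the data. Among tumour cells below the median share of division gene UMIs, 305 RSPO3-OE and 332 Ctrl cells were hypoxic. The medians there were 1.17 and 1.22 for HIF targets, 1.29 and 1.25 for glycolysis, -0.96 and -1.15 for the S phase list, and -0.90 and -0.93 for cholesterol synthesis. Ribosome biogenesis stood at -0.42 and -0.57. These medians kept their sign among cells with few division transcripts. The S phase list, whose genes took part in that choice, was still lower in hypoxic cells, so the choice did not make the classes equal in division genes. The part of division in the other lists was not tested.

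**Figure D4:**
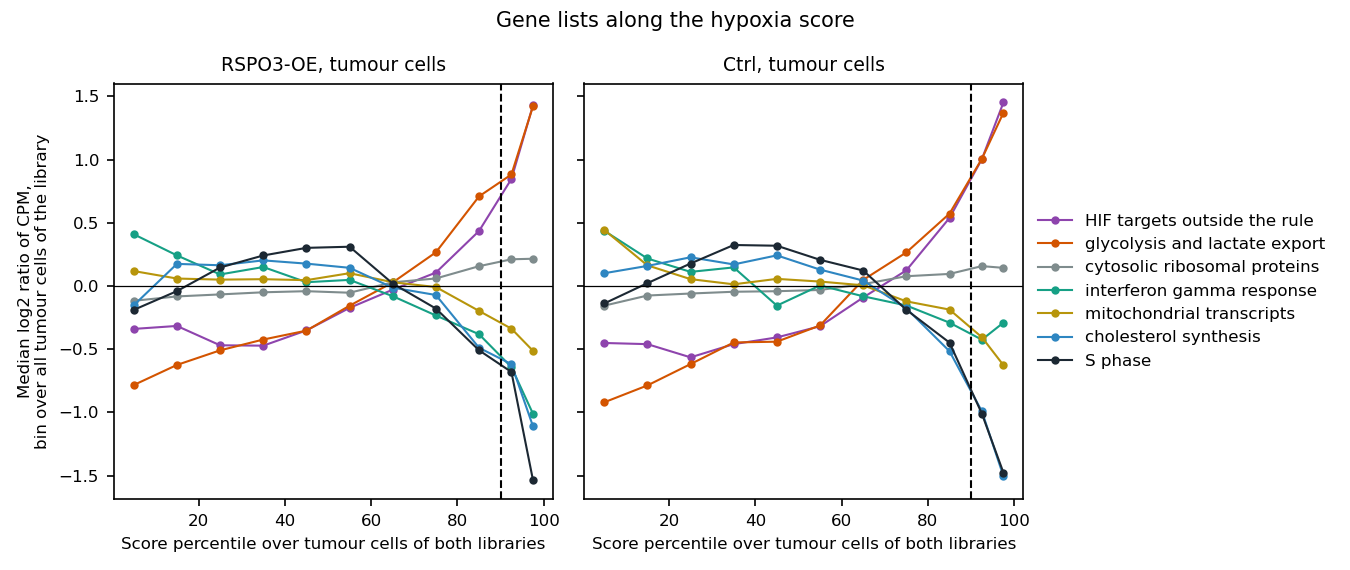
Median log2 ratio of 7 gene lists in bins of tumour cells along the hypoxia score, against all tumour cells of the library, one panel a library, with the mid percentile of the bin on the horizontal axis and a dashed line at the limit of the hypoxic class. Toward the top of the score HIF targets and glycolysis stand highest and S phase and cholesterol synthesis lowest.

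Along the whole score the lists did not change at a constant rate. HIF targets stood at -0.34 in RSPO3-OE and -0.45 in Ctrl in the lowest 10% of cells, at 0.43 and 0.54 between percentiles 80 and 90, and at 1.43 and 1.45 in the top 5%. Glycolysis stood at -0.78 and -0.92 in the lowest 10% and at 1.42 and 1.37 in the top 5%. S phase genes were at -0.19 and -0.14 in the lowest 10%, above 0 between percentiles 30 and 70 in both libraries, and at -1.54 and -1.48 in the top 5%. Cholesterol synthesis was at -1.11 and -1.51 in the top 5%. Median UMIs ran lowest at both ends in Ctrl, with 14858 in the lowest 10% and 18055 in the top 5%, and the part of depth in these curves was not tested.

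Individual cells followed the pooled picture to differing degrees. Of hypoxic cells, 64.8% in RSPO3-OE and 71.0% in Ctrl were among the highest 10% of tumour cells by the summed HIF targets outside the score, against 3.37% and 3.74% of other tumour cells. By glycolysis genes the shares were 64.1% and 76.3%, against 1.66% and 4.90%. By S phase genes 1 of 415 hypoxic cells in RSPO3-OE and 3 of 438 in Ctrl were among the highest 10%, against 8.74% and 13.3% of other tumour cells. By G2 and M phase genes they were 3.86% and 4.11%, against 9.32% and 12.0%. Cells with many transcripts of mitosis were therefore fewer but present among the hypoxic cells.

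Interferon gamma response genes were lower, by more in the RSPO3-OE library. Of 20 genes, 16 of 19 measured in RSPO3-OE and 5 of 17 in Ctrl were called lower and 0 higher, with medians of -0.91 and -0.37, or -0.72 and -0.18 relative to all genes. Cxcl9, a chemokine that attracts T cells, had in the RSPO3-OE library 29.4 CPM in hypoxic cells against 147 CPM in other tumour cells, and in the Ctrl library 17.6 against 37.1 CPM. Iigp1, an interferon-inducible GTPase, had in the RSPO3-OE library 127 CPM in hypoxic cells against 379.8 CPM in other tumour cells, and in the Ctrl library 50.6 against 89.4 CPM. Cxcl10, another T cell chemokine, had in the RSPO3-OE library 419.8 CPM in hypoxic cells against 1049 CPM in other tumour cells, and in the Ctrl library 397 against 922 CPM. Irf1, a transcription factor of this response, stood at 179 against 330.1 CPM in RSPO3-OE and, in Ctrl, 99.8 against 125 CPM. Psmb10, a subunit of the immunoproteasome from the antigen presentation list, stood at 161 against 329 CPM in RSPO3-OE and, in Ctrl, 136 against 223 CPM. Type I interferon effectors did not share this pattern, with medians of 0.02 and 0.32, or 0.21 and 0.51 relative to all genes. Among them Isg20, an exonuclease against viral RNA, was higher in both, at 65.9 against 24.5 CPM in RSPO3-OE and, in Ctrl, 61.8 against 22.98 CPM.

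Between the libraries, hypoxic cells differed about as often as other tumour cells did. In hypoxic cells 372 of 7294 measured genes were at least 1.5-fold higher in RSPO3-OE than in Ctrl (5.1%) and 394 lower (5.4%), and in other tumour cells 450 of 7779 were higher (5.78%) and 516 lower (6.63%). With median-of-ratios scaling the counts in hypoxic cells were 434 higher and 288 lower, so the higher share of the calls moved from 48.6% to 60.1%. The medians over all genes were -0.06 in both classes. The score genes had a median of -0.02 in hypoxic cells, HIF targets -0.10 and glycolysis -0.13, and of 25 measured HIF targets 1, Ndrg1, was called higher and 0 lower.

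The overexpressed gene comes first as a check of the labels. Rspo3 had 1985 UMIs in RSPO3-OE hypoxic cells, 216 CPM (exact Poisson interval 207 to 226), and 0 UMIs in Ctrl hypoxic cells, where 3 counts over the group would give 0.329 CPM. Set against that floor, Rspo3 was 658-fold higher in RSPO3-OE hypoxic cells. The log2 ratio was 9.36, and the lower limit of its counting interval was 9.06. In other tumour cells of RSPO3-OE it stood at 97.6 CPM, and in Ctrl again at 0 UMIs. At least 1 UMI was found in 32.3% of 415 hypoxic cells (27.8% to 37.0%), against 21.1% of 3798 other tumour cells (19.8% to 22.4%). Thinned to 5000 UMIs a cell, the shares were 22.6% of 412 hypoxic and 12.5% of 3786 other tumour cells. In RSPO3-OE macrophages, which should lack it, 2.62% of 1258 cells had a UMI at a median of 12230.5 UMIs. The level was uneven in all 3 classes of RSPO3-OE cells. Of the Rspo3 UMIs of hypoxic cells, 87.9% lay in 58 cells of at least 10 Rspo3 UMIs each. In other tumour cells 84.3% lay in 289 such cells, and in macrophages 84.2% lay in 12.

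The genes with the highest and lowest library ratios in hypoxic cells are given here beside their ratio in other tumour cells. Krt8, a keratin of simple epithelia, had 513 CPM in RSPO3-OE hypoxic cells against 126 CPM in Ctrl hypoxic cells, and 542 against 83.8 CPM in other tumour cells. Ccl7, a chemokine for monocytes, had 436 CPM in RSPO3-OE hypoxic cells against 93.8 CPM in Ctrl hypoxic cells, and 438 against 71.9 CPM in other tumour cells. Crip1, a small LIM protein, had 1245 CPM in RSPO3-OE hypoxic cells against 312 CPM in Ctrl hypoxic cells, and 2578 against 570.2 CPM in other tumour cells. Log2 ratios of RSPO3-OE over Ctrl were 2.03 in hypoxic cells (1.94 to 2.12) and 2.69 in other tumour cells (2.66 to 2.73) for Krt8, 2.22 in hypoxic cells (2.11 to 2.32) and 2.61 in other tumour cells (2.57 to 2.64) for Ccl7 and 1.995 in hypoxic cells (1.94 to 2.05) and 2.18 in other tumour cells (2.16 to 2.19) for Crip1. Other genes with high ratios were Mgp, at 2.39 in hypoxic cells and 2.88 in other tumour cells, Crip2, at 2.24 in hypoxic cells and 2.19 in other tumour cells, Tob1, at 1.89 in hypoxic cells and 1.72 in other tumour cells, and Rgcc, a cell cycle regulator also called higher in hypoxic cells of each library, at 1.56 in hypoxic cells and 1.80 in other tumour cells. S100a16 and the nuclear receptor Nr4a2 followed, at 1.63 in hypoxic cells and 2.52 in other tumour cells for S100a16 and 1.61 in hypoxic cells and 2.29 in other tumour cells for Nr4a2. Lower in RSPO3-OE were the histone genes Hist1h1e, Hist1h2ap and Hist1h1b, at -1.74, -1.68 and -1.49 in hypoxic cells, uncertain for the reasons above. Rgs16, which turns off G protein signals, had 49.04 CPM in RSPO3-OE hypoxic cells against 119 CPM in Ctrl hypoxic cells, and 34.8 against 124 CPM in other tumour cells. Hsph1, a heat shock protein, had -1.08 in hypoxic cells and -0.75 in other tumour cells, and Sox4, a developmental transcription factor, had -0.89 in hypoxic cells and -1.26 in other tumour cells. Ccni, Col18a1, Ccdc85b and Srpk2 lay between -1.04 and -0.88 in hypoxic cells. Under the alternatives of the closing section the ratio in hypoxic cells ran from 1.55 to 2.57 for Mgp and from -2.59 to -1.54 for Hist1h2ap.

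Immediate early genes of hypoxic cells were higher in RSPO3-OE, with 13 of 21 measured called higher and a median of 0.97, against 15 of 20 and 1.04 in other tumour cells. The 21 genes together stood at 19125 CPM in RSPO3-OE hypoxic cells and 11836 CPM in Ctrl hypoxic cells. Junb, a subunit of AP-1, had 1915 CPM in RSPO3-OE hypoxic cells against 774 CPM in Ctrl hypoxic cells, and 1885 against 723 CPM in other tumour cells. Such genes can be induced during tissue dissociation, which the labels say was done on ice, and its part was not tested. Genes of the mitochondrial genome were lower in RSPO3-OE, with medians of -0.38 in hypoxic and -0.51 in other tumour cells.

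**Figure D5:**
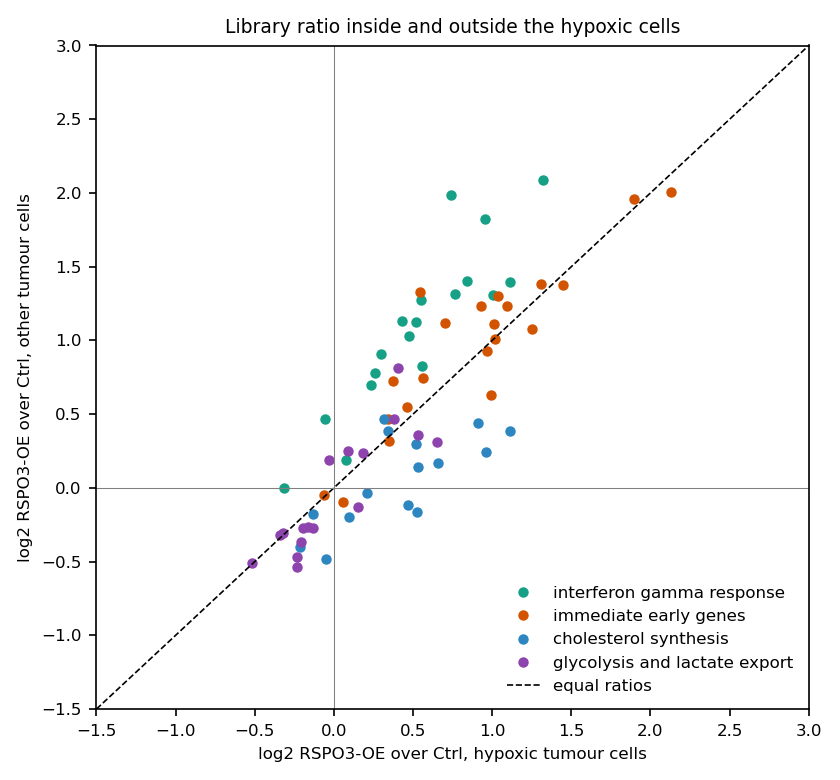
Log2 ratio of CPM, RSPO3-OE over Ctrl, in hypoxic cells (horizontal) against that in other tumour cells (vertical), one point a measured gene of 4 lists, with a dashed line where the ratios are equal. The 18 interferon gamma response genes lie above the line, and cholesterol synthesis genes lie mostly below it.

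The library difference in interferon gamma response genes was smaller in hypoxic cells. There 7 of 18 measured were called higher in RSPO3-OE, with a median of 0.53, against 16 of 19 and 1.12 in other tumour cells. All 18 had a lower ratio in hypoxic than in other tumour cells. Other immune lists also had a smaller median in hypoxic than in other tumour cells. Type I interferon effectors had 0.23 against 0.51, MHC class I presentation 0.18 against 0.49, and checkpoint and immune suppression genes 0.30 against 0.58. TNF and NF-kB response genes had a larger one, 0.43 against 0.32. Gbp2, a guanylate-binding protein, had 241 CPM in RSPO3-OE hypoxic cells against 124 CPM in Ctrl hypoxic cells, and 462 against 131 CPM in other tumour cells. Its log2 ratio was 0.96 in hypoxic cells (0.85 to 1.06) and 1.82 in other tumour cells (1.79 to 1.85), and the difference between them was -0.87 (-0.97 to -0.76). Iigp1 had a difference of -0.76 (-0.92 to -0.60) and Rsad2, an antiviral enzyme of the type I interferon effector list, of -0.79 (-0.91 to -0.67). Under the alternatives of the closing section this difference ran from -1.16 to -0.16 for Iigp1, smallest with the highest 20% of cells, and from -0.999 to -0.27 for Rsad2, smallest with the mean of single-cell CPM. With 1 library each, this difference has no replicate check.

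Cholesterol synthesis went the other way. In hypoxic cells 4 of 15 measured genes were called higher in RSPO3-OE, with a median of 0.47, against 0 of 20 and -0.01 in other tumour cells. Msmo1, a sterol oxidase, had 86.2 CPM in RSPO3-OE hypoxic cells against 62.4 CPM in Ctrl hypoxic cells, and 157 against 169.8 CPM in other tumour cells, a difference of 0.58 (0.42 to 0.74). Under the alternatives it ran from 0.30 to 0.81.

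Other genes whose library ratio was higher in hypoxic than in other tumour cells were led by Grem1, a secreted BMP antagonist. It had 118 CPM in RSPO3-OE hypoxic cells against 61.9 CPM in Ctrl hypoxic cells, and 30.5 against 37.4 CPM in other tumour cells. In hypoxic over other tumour cells its log2 ratio was 1.95 in RSPO3-OE (1.85 to 2.05) and 0.73 in Ctrl (0.60 to 0.86), and the difference was 1.22 (1.06 to 1.39). Gja1, the gap junction protein connexin 43, had 189 CPM in RSPO3-OE hypoxic cells against 88.2 CPM in Ctrl hypoxic cells, and 88.8 against 63.6 CPM in other tumour cells, a difference of 0.62 (0.49 to 0.74). Col1a1, a chain of type I collagen, had 129 CPM in RSPO3-OE hypoxic cells against 61.5 CPM in Ctrl hypoxic cells, and 92.9 against 83.6 CPM in other tumour cells, a difference of 0.92 (0.77 to 1.07). Mgarp, a mitochondrial protein known as a HIF-1 target, had 52.9 CPM in RSPO3-OE hypoxic cells against 56.7 CPM in Ctrl hypoxic cells, and 6.83 against 11.4 CPM in other tumour cells, and stood at 2.95 in RSPO3-OE and 2.31 in Ctrl in hypoxic over other tumour cells. The rest of this group were Ankrd1, Col18a1, Cavin2, Nop56 and Rgs16, with differences between 0.56 and 0.63. Under the alternatives the difference ran down to 0.05 for Ankrd1, 0.14 for Rgs16, 0.27 for Cavin2 and 0.38 for Col18a1.

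In the opposite direction, the ratio was lower in hypoxic than in other tumour cells for Ly6a, the surface protein Sca-1, at 936 CPM in RSPO3-OE hypoxic cells against 672 CPM in Ctrl hypoxic cells, and 1532 against 629 CPM in other tumour cells. Ly6c1, of the same family, had 487 CPM in RSPO3-OE hypoxic cells against 324 CPM in Ctrl hypoxic cells, and 783 against 276 CPM in other tumour cells, and the members of this family are alike enough for reads to be shared. Aspa, an enzyme that splits N-acetylaspartate, had 52.6 CPM in RSPO3-OE hypoxic cells against 94.7 CPM in Ctrl hypoxic cells, and 93.2 against 81.8 CPM in other tumour cells, a difference of -1.04 (-1.20 to -0.87). Apod, a lipid-binding apolipoprotein, had 343 CPM in RSPO3-OE hypoxic cells against 201 CPM in Ctrl hypoxic cells, and 336 against 108 CPM in other tumour cells, a difference of -0.87 (-0.96 to -0.78). Kdm6b, a histone demethylase, had a difference of -0.78 (-0.92 to -0.64) and S100a16 of -0.88 (-1.05 to -0.71). Under the alternatives the difference was as small as -0.44 for Apod, -0.41 for S100a16 and -0.59 for Ly6c1.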

How the data were processed

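The deposited matrices hold UMI counts per gene and barcode, which the authors made from Chromium 3′ v2 libraries sequenced on a NextSeq 500, per the labels' protocols. The submitters' processing notes name Cell Ranger 3.0.1 and mm10, and the header of the matrices reads 3.1.0. The counts are not normalized, and barcodes had already been called as cells. Of 32285 genes, those sharing a symbol are told apart by Ensembl identifier.

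Barcodes were kept with at least 200 genes and at most 20% mitochondrial UMIs, 7164 in RSPO3-OE and 6990 in Ctrl, of which 4213 and 4318 were tumour cells. Doublets were kept. Scrublet (scanpy 1.11.5, expected rate 0.05) called as doublets 2.39% and 1.36% of kept barcodes, and leaving them out was an alternative. UMIs were summed per class and library and divided by the class total (CPM). Ratios carry exact binomial, shares exact Clopper-Pearson and sums exact Poisson intervals at 95%, with a floor of 3 counts for a sum of 0. Of these steps, the ratios of single genes and their intervals were tested on simulated counts. Hypoxic cells and the gene lists, 41 with 8 of markers, were chosen with earlier results of these data known. Genes named without reference to a list had at least 50 CPM and were the 15 highest and 15 lowest by the ratio nearer 0 of the 2 libraries, the 10 highest and 10 lowest between libraries in hypoxic cells, and the 10 each way whose library ratio differed most from other tumour cells. Examples from the lists were chosen after their values were seen. Some list members are not reported here. Alternatives changed the score, its limit, the cell filters, the tumour cell rule, depth, scaling and the filter on genes. Promoter windows came from RefSeq, build GRCm38.p6, the assembly behind mm10. Tools were pandas 2.3.3, scipy 1.17.1, numpy 2.4.6 and matplotlib 3.10.9 under Python 3.11.15.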

Additional observations from a re-analysis of the deposited data

Results flagged for a closer look

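Some genes had opposite signs of the hypoxic over other tumour cell log2 ratio in the libraries, and these differences were not tested, since each group had 1 library. Krt8, a keratin, stood at -0.08 in RSPO3-OE and 0.58 in Ctrl, differing by -0.66. S100a16, a calcium-binding protein, stood at -0.11 in RSPO3-OE and 0.77 in Ctrl, differing by -0.88. Nr4a2, a nuclear receptor, stood at -0.32 in RSPO3-OE and 0.36 in Ctrl, differing by -0.68. In CPM all of them were slightly lower in RSPO3-OE hypoxic cells and higher in Ctrl hypoxic cells than in other tumour cells of the library. The median of all genes was -0.19 in each library. Krt8 and S100a16 stood above it in both libraries, so relative to all genes their sign did not differ. Aspa differed in the same direction and passed 1.5-fold in RSPO3-OE, at -0.82 in RSPO3-OE and 0.21 in Ctrl, differing by -1.04. Ly6c1 stood at -0.69 in RSPO3-OE and 0.23 in Ctrl, differing by -0.92, and Ly6a at -0.71 in RSPO3-OE and 0.10 in Ctrl, differing by -0.81, for a pair of related surface proteins. The reverse was seen for matrix and membrane genes. Col1a1 stood at 0.48 in RSPO3-OE and -0.44 in Ctrl, differing by 0.92. Col18a1, of basement membranes, stood at 0.30 in RSPO3-OE and -0.32 in Ctrl, differing by 0.62. Cavin2, a protein of caveolae, stood at 0.19 in RSPO3-OE and -0.41 in Ctrl, differing by 0.60. The median over the MHC class I presentation list was -0.20 in RSPO3-OE and 0.15 in Ctrl, a difference of -0.35. Relative to all genes it was -0.01 and 0.34, so in RSPO3-OE it lay near the median of all genes. Of 14 and 13 measured genes, 0 and 1 were called higher. Called lower were 3 and 1, against 17.1% and 18.4% over all genes. In Ctrl the list median stood at -0.05 among cells below the median share of division gene UMIs, an alternative added after seeing the data.

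The 6 score genes also had signal outside tumour cells. In macrophages, kept barcodes apart from the comparisons above, they summed to 576.0 CPM in 1258 RSPO3-OE cells and 577 CPM in 1193 Ctrl cells, above the 416.5 and 446 CPM of other tumour cells and below the 3088 and 3107 CPM of hypoxic cells. The part of free RNA in these sums was not tested.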

How the results depend on the processing

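No paired analysis was possible because each group has 1 library and the labels carry no replicate numbers, and no replicate could be left out. Taking the highest 5% of tumour cells gave 4.84% of RSPO3-OE and 5.16% of Ctrl tumour cells, and HIF target medians of 1.53 and 1.56. Taking the highest 20% gave 19.4% and 20.5%, medians of 1.08 and 1.25, and 762 and 687 genes at least 1.5-fold lower. Requiring at least 3 UMIs of Hmga2 gave a HIF target median of 1.22 in RSPO3-OE. Median-of-ratios scaling gave 472 genes higher and 637 lower in RSPO3-OE, 557 and 784 in Ctrl, and HIF target medians of 1.59 and 1.62. Counting every gene with at least 1 UMI gave 5756 higher and 2900 lower in RSPO3-OE, 5319 and 3178 in Ctrl, and 2339 and 2943 between the libraries in hypoxic cells, where few counts a gene make large ratios, and a Ctrl HIF target median of 1.56. Among cells below the median share of division gene UMIs, an alternative added after seeing the data, 836 genes were lower in Ctrl, and the HIF target medians were 1.17 and 1.22. The type I interferon median in Ctrl was -0.016 with the mean of single-cell CPM in place of 0.32, and the cause was not tested. Of all values of shares, counts and HIF target medians under the alternatives, 143 of 170 stayed within set limits. These were the counting interval for a share and 1.5-fold for a count. For a HIF target median they were the medians of its members' lower and upper counting limits. For single genes 1323 of 1777 values moved by less than counting error or, for differences of library ratios, by less than a fixed 0.2. For other list medians 1423 of 1638 stayed within the medians of their members' lower and upper counting limits. Such limits are not a counting interval of the list median. A change of sign was counted only for medians beyond 0.2. The interferon gamma median stayed between -1.04 and -0.68 in RSPO3-OE and between -0.67 and -0.18 in Ctrl. The smallest counts limit the precision of genes under 10 CPM.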

Other observations

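Heat shock genes, which assist protein folding, had medians of 0.20 in RSPO3-OE and 0.26 in Ctrl in hypoxic over other tumour cells, with 1 and 2 of 13 measured genes at least 1.5-fold higher. Dnajb1, a co-chaperone, was one of them, with 609 against 360.4 CPM in RSPO3-OE and, in Ctrl, 452 against 229.6 CPM. TNF and NF-kB response genes had medians of -0.13 and -0.08, or 0.06 and 0.11 relative to all genes, with 0 higher and 2 lower in each library. Ccl2, a chemokine that draws monocytes, had 2700 against 4250 CPM in RSPO3-OE and, in Ctrl, 1358 against 1466 CPM. Among immediate early genes Ier3, an early stress gene, had 745 against 389.7 CPM in RSPO3-OE and, in Ctrl, 458 against 179.9 CPM, and Fos, a subunit of AP-1, had 2428 against 1512 CPM and 1275 against 643 CPM.

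Checkpoint and immune suppression genes had medians of -0.31 in RSPO3-OE and 0.02 in Ctrl, with 1 called higher and 3 lower of 10 measured in RSPO3-OE and 1 higher and 1 lower of 7 in Ctrl. Ptgs2, the prostaglandin enzyme COX-2, had 193 against 99.0 CPM in RSPO3-OE and, in Ctrl, 99.6 against 66.3 CPM. Cd274, which encodes PD-L1, had 12.5 against 16.3 CPM and 10.2 against 8.68 CPM. Genes of the mesenchymal list were close to all genes, with medians of -0.11 and -0.06, or 0.09 and 0.13 relative to all genes, but the calcium-binding S100a4 and S100a6 had log2 ratios of -0.73 and -0.67 in RSPO3-OE and of -0.55 and -0.77 in Ctrl. Axin2, a Wnt feedback gene, had 3.60 CPM in RSPO3-OE hypoxic cells against 0.97 CPM in other tumour cells, and in the Ctrl library 1.10 against 0.86 CPM, all under the level at which genes were counted. Thbs1, a matrix protein that restrains vessel growth, had 26.3 against 6.40 CPM in RSPO3-OE and, in Ctrl, 22.0 against 14.8 CPM.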
